A study of Mus musculus with 14 samples.

Results

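Gene expression in 1-cell mouse embryos made by somatic cell nuclear transfer (SCNT) was compared with that in 1-cell embryos made by in vitro fertilisation (IVF). In SCNT the chromosomes of an oocyte are removed and the nucleus of a body cell is put in their place, here the nucleus of a cumulus cell, one of the somatic cells that surround the oocyte. Per the strain labels, the SCNT embryos joined nuclei of (C57BL/6J x CAST/EiJ) F1 cumulus cells with B6D2F1 recipient oocytes. The IVF embryos came from C57BL/6J oocytes fertilised by CAST/EiJ sperm, so the oocyte strain differed with the kind of embryo and the 2 cannot be told apart. The labels' protocol names BDF1 females as the cumulus source, a conflict that is not settled in the sources used here. The females received 7.5 IU of each of 2 gonadotropins, and cumulus cells were collected 15 h after the second. Nothing in the sources used here gives the hour at which either kind of 1-cell embryo was lysed, the way SCNT embryos were activated, or whether the replicates were separate experiments. P-values therefore speak only of how far libraries of the same group spread, which may be technical. That spread was estimated over all 7 groups of the series, not from the 4 compared libraries alone.

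The comparison rested on 4 of the 14 libraries of the series, with 36 embryos pooled in each of the 2 SCNT libraries and 32 and 31 in the 2 IVF libraries. Donor cumulus cells (2 libraries of about 1000 cells) and SCNT and IVF 2-cell embryos (2 libraries each) were used for reference levels. Of 22484 gene symbols in the table, tests covered the 13447 that reached 1 FPKM in 2 or more of the 14 libraries. FPKM counts sequenced fragments relative to the length of the transcript and to all mapped fragments of the library. A gene is said to have risen or fallen in SCNT embryos only where its limma p-value, adjusted by Benjamini and Hochberg over all tested genes, was under 0.05. Differences are on the log2(FPKM + 1) scale, SCNT minus IVF, and understate the change of genes near 0.

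A mouse embryo at the 1-cell stage lives mainly on RNA and protein stored while the oocyte grew. Its own genome is first read at a low level late in this stage, and strongly at the 2-cell stage, while stored messages are lengthened or shortened at their poly(A) tails, translated and destroyed. In an SCNT embryo the nucleus has just left a steroid-making somatic cell with a transcript population of its own, and there is no sperm. FPKM are relative to each library's total, so less RNA of a gene per embryo and more RNA of other genes cannot be told apart.

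The 4 libraries were similar in depth and all carried an oocyte transcript population. The steps in low FPKM put their depths at 0.966 and 0.920 (SCNT) and 1 and 0.930 (IVF) of the deepest library of the series. The sums of FPKM were 315100 and 322000 in SCNT and 344600 and 345400 in IVF libraries, and 9025 and 9028 against 8450 and 8493 genes reached 1 FPKM. Between replicates, Spearman's rho across genes was 0.9615 in SCNT and 0.9524 in IVF embryos. All 12 oocyte markers examined were detected in every 1-cell library, with summed levels of 6899 and 7268 FPKM in SCNT and 9095 and 8907 FPKM in IVF embryos.

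The genes that rose in SCNT embryos were mostly scarce after IVF, and many were abundant in cumulus cells. The genes that fell were mostly well detected after IVF. In all, 181 genes rose (1.35% of those tested) and 131 fell (0.974%), together 2.32%. The median difference over all tested genes was 0.068, and 2049 genes (15.2%) had an unadjusted p under 0.05. The 181 had a median of 3.499 FPKM in SCNT and 0.7324 FPKM in IVF embryos, and 108 of them averaged under 1 FPKM after IVF. The 131 had a median of 19.98 FPKM in SCNT and 39.51 FPKM in IVF embryos. Changes of 2-fold or more were found in 115 of the genes that rose and 42 of those that fell. The SCNT and IVF libraries did not overlap for any of the 312 called genes, but the same held for 66.2% of all tested genes.

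**Figure D1:**
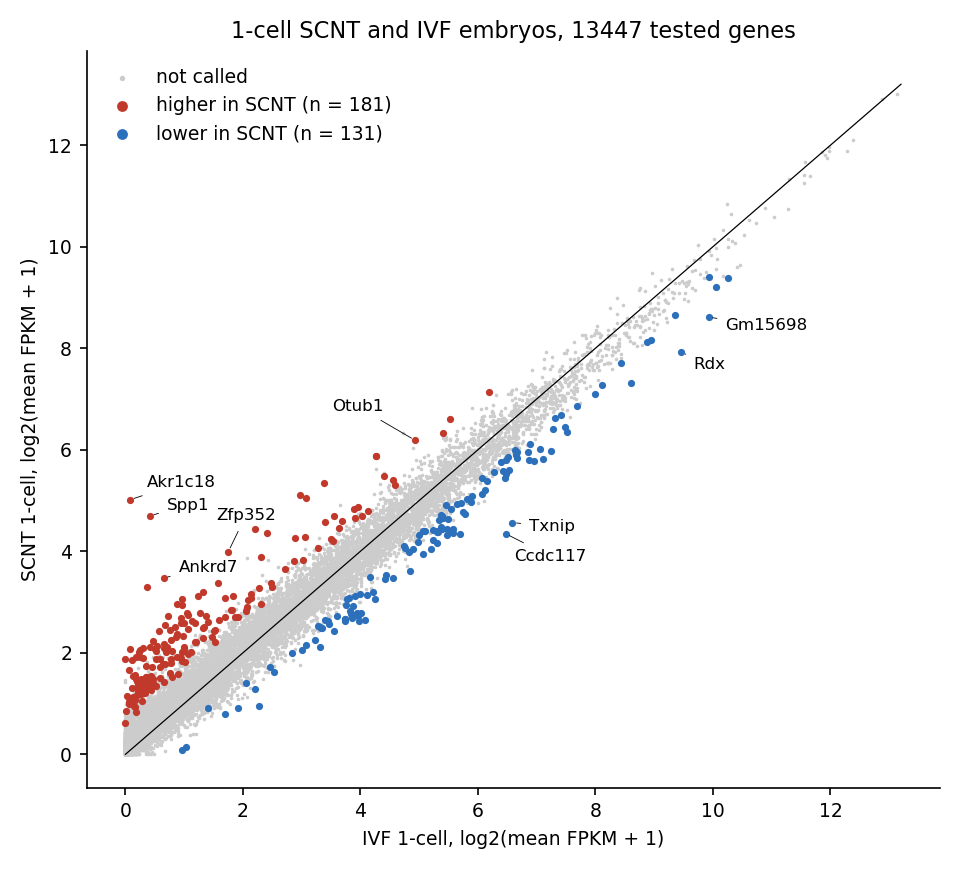
Mean level of each of the 13447 tested genes in SCNT 1-cell embryos (vertical axis) against IVF 1-cell embryos (horizontal axis), both as log2(mean FPKM + 1), each mean over 2 libraries, with the line of equality. Genes that rose (red, n = 181) gather at the low end of the IVF axis and genes that fell (blue, n = 131) in the middle and upper range.

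The counts depend on the fit. Without SCNT replicate 1 or 2, 40 and 37 genes rose and 9 and 10 fell, and without IVF replicate 1 or 2, 36 and 47 rose and 11 and 11 fell. With libraries scaled to equal sums of FPKM, 105 genes rose and 44 fell, which makes 70.47% of the calls higher instead of 58.01%. Other fits gave far more calls: 1620 rose and 1177 fell on the 4 1-cell libraries alone, 1028 and 720 without the Kdm4d and mutant Kdm4d libraries, and 2550 and 1532 with group weights. Where a library is left out, here and in what follows, its group keeps 1 library, which is assumed to vary like the other groups.

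Transcripts of steroid-making cumulus cells led the rise. Akr1c18, which encodes the progesterone-degrading enzyme 20-alpha-hydroxysteroid dehydrogenase (mm9 chromosome 13, 4131873 to 4149877), stood at 23.92 and 38.77 FPKM in SCNT embryos, against 0.1139 and 0 FPKM in IVF embryos. Its level in donor cumulus cells was 3658 and 3215 FPKM. The difference of 4.90 ± 0.38 (SE) was the largest of the comparison (adjusted p = 9.9e-05), and both SCNT libraries were far above both IVF libraries. Spp1, the gene of the secreted protein osteopontin, had 22.12 and 27.83 FPKM in SCNT embryos, 0.07001 and 0.6019 FPKM in IVF embryos and 16700 and 12150 FPKM in donor cells (difference 4.30 ± 0.43, adjusted p = 0.00067). Cyp11a1, which makes the first enzyme of steroid synthesis, was listed at 0 in both IVF libraries and had 2.453 and 2.874 FPKM in SCNT embryos (adjusted p = 0.011). Hsd3b1, the next enzyme of that pathway, had 1.62 and 2.011 FPKM in SCNT and 0.1339 and 0.1201 FPKM in IVF embryos (adjusted p = 0.022). Akr1cl, a member of the same aldo-keto reductase family as Akr1c18, was already detected after IVF, with 32.46 and 34.82 FPKM in SCNT and 6.335 and 7.351 FPKM in IVF embryos (difference 2.15 ± 0.25, adjusted p = 0.0014). Ctsl, a lysosomal protease, had 7.317 and 6.181 FPKM in SCNT and 0.7181 and 0.9519 FPKM in IVF embryos (difference 2.08 ± 0.23, adjusted p = 0.0011). Ctsl is not particular to cumulus cells: it had 424.8 and 409.0 FPKM in donor cells and 333.4 and 291.2 FPKM in IVF 2-cell embryos. About 26.3% of the 50-base stretches of its transcripts occur in other genes too. Leaving out each 1-cell library in turn ended the calls of Cyp11a1 (adjusted p up to 0.125) and Hsd3b1 (up to 0.225) in each case, and none of the other 4.

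Of 42 tested genes of a cumulus and granulosa list, 9 rose and 0 fell, with a median difference of 0.12 over the 42 beside 0.068 over all tested genes, of which 1.35% rose. With a pseudocount of 0.1 FPKM 14 rose, and with 5 FPKM 4 rose and 1 fell. The 9 also include Gja1, the main gap junction protein of cumulus cells, with 4.656 and 4.31 FPKM in SCNT and 0.7419 and 0.6346 FPKM in IVF embryos. Tnfaip6, a protein of the expanded cumulus matrix, is among them (both chosen after their values were seen), with 1.665 and 1.272 FPKM in SCNT and 0.09212 and 0.05665 FPKM in IVF embryos. Leaving out any 1 library kept the call of Gja1 and ended that of Tnfaip6 (adjusted p up to 0.119). Of 19 defining cumulus and granulosa markers, 12 had both SCNT libraries above both IVF libraries and 0 the reverse. A lack of overlap, in either direction, was also found for 66.2% of all tested genes. Some of the 12 were near 0, such as Inha at 0.04542 and 0.07927 FPKM in SCNT embryos. The 19 summed to 59.94 and 80.66 FPKM in SCNT, 2.811 and 3.577 FPKM in IVF and 26890 and 20510 FPKM in donor libraries. Of the 19, 1 (Amh) was listed at 0 in both SCNT libraries and 5 were at 0 in both IVF libraries, among them Cyp11a1, Inhba and Inha. RNA that came in with the donor nucleus, RNA from cumulus cells left on the embryos and transcription in the embryo cannot be told apart here. Among 19 genes of steroid synthesis, the 3 that rose are the Akr1c18, Cyp11a1 and Hsd3b1 given above.

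**Figure D2:**
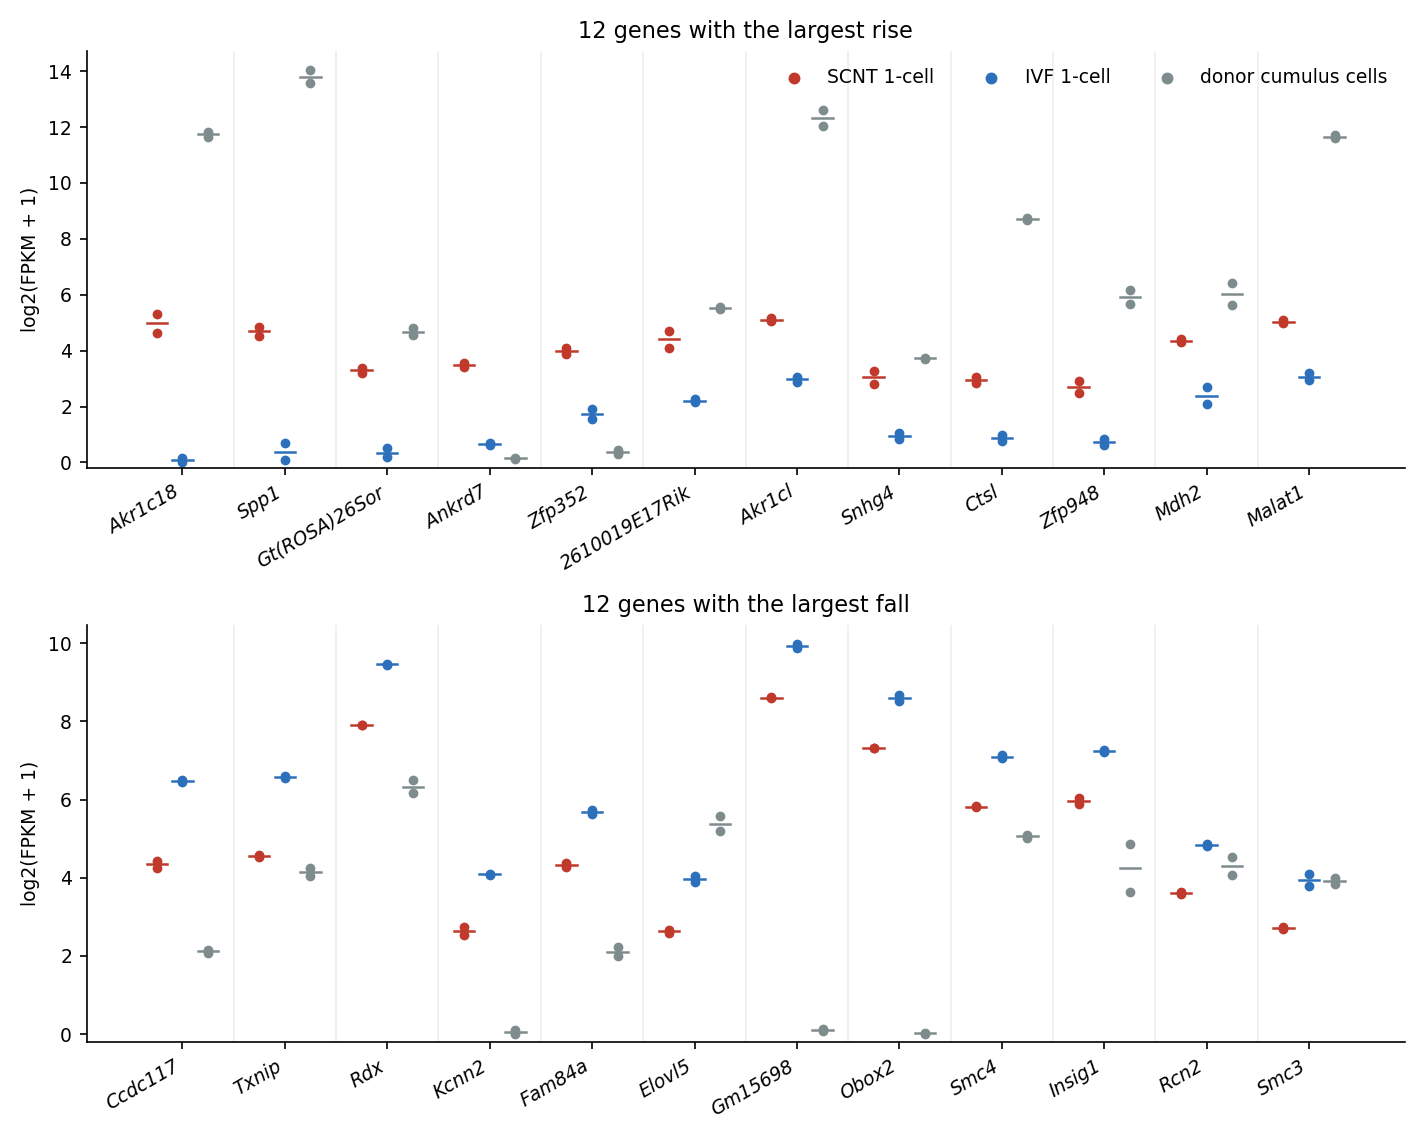
Levels as log2(FPKM + 1) of the 12 genes with the largest rise (upper panel) and the 12 with the largest fall (lower panel), among called genes of at least 5 FPKM in a group. Each point is a library of SCNT 1-cell embryos (red), IVF 1-cell embryos (blue) or donor cumulus cells (grey), and each bar the mean of 2; of the 12 that rose, Ankrd7 and Zfp352 are the ones with donor cells below the SCNT embryos.

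Donor levels above those of SCNT embryos were commoner among the genes that rose than among those that fell. The donor mean exceeded the SCNT mean for 140 of the 181 (77.35%), for 41 of the 131 (31.3%) and for 51.74% of all tested genes. These shares depend in part on the SCNT level, with a median of 3.499 FPKM in the 181 and 19.98 FPKM in the 131. Genes of like SCNT level were not compared. Of genes at 100 FPKM or more in donor cells, 45 of 399 (11.28%) rose. Of genes under 0.1 FPKM there, 8 of 1780 (0.449%) did. Among the genes that fell the span was narrower, with 2.005% (8 of 399) in the highest donor class, 1.067% (19 of 1780) in the lowest and 0.501% in the next lowest.

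To describe donor RNA apart from genes expressed in IVF 2-cell embryos, 29 genes were taken. They had at least 100 FPKM in donor cells and under 1 FPKM in IVF 2-cell embryos, a rule that uses no 1-cell library. The rule does not set apart genes that SCNT embryos express. At 2-cell, 12 of the 29 were higher in SCNT than in IVF embryos and 0 lower, beside 30.3% and 16.6% of all tested genes. The rule itself holds the IVF 2-cell level under 1 FPKM (median 0.2963 FPKM), so these genes had little room to be lower. The shares of all tested genes are therefore not a like comparison. At 1-cell, 5 of the 29 rose (17.24%) and 0 fell. Their IVF 1-cell levels were low too, with a median of 0.1534 FPKM, which left little room for a fall. The share that rose was 1.35% of all tested genes and 11.28% of the 399 with at least 100 FPKM in donor cells. The median level of the 29 was 0.8355 FPKM in SCNT and 0.1534 FPKM in IVF 1-cell embryos and 167.5 FPKM in donor cells. Their sums were 28.78 and 28.71 FPKM in SCNT against 9.846 and 8.557 FPKM in IVF libraries. In SCNT embryos the median gene of the 29 was thus at 0.368% of its donor level, with a range of 0.041% to 1.76%. Anxa1, encoding a phospholipid-binding protein, had 2.145 and 2.178 FPKM in SCNT, 0.0926 and 0 FPKM in IVF and 446.4 and 747 FPKM in donor libraries (adjusted p = 0.006). Nrn1, the gene of a small membrane-anchored protein first known from neurons, had 2.015 and 1.722 FPKM in SCNT, 0.3833 and 0.1707 FPKM in IVF and 449.7 and 390.3 FPKM in donor libraries (adjusted p = 0.036). Not every abundant donor transcript followed: Sfrp2, a secreted modulator of Wnt signalling, was at 339.6 and 424.4 FPKM in donor cells but had 0.3608 and 0.1889 FPKM in SCNT and 0.4298 and 0.6828 FPKM in IVF embryos (adjusted p = 0.63). Leaving out any 1 of the 4 libraries ended the calls of Anxa1 (adjusted p up to 0.0792) and Nrn1 (up to 0.291).

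Other genes rose although their donor mean was below their SCNT mean. Ankrd7, which encodes an ankyrin repeat protein (mm9 chromosome 6, 18816318 to 18829584), had 10.69 and 9.55 FPKM in SCNT and 0.5416 and 0.6029 FPKM in IVF embryos, but only 0.1265 and 0.09558 FPKM in donor cells (difference 2.82 ± 0.32, adjusted p = 0.0011). Zfp352, a zinc finger gene known for its expression in early mouse embryos (mm9 chromosome 4, 89885511 to 89892378), had 16.02 and 13.79 FPKM in SCNT, 1.949 and 2.781 FPKM in IVF and 0.3483 and 0.2441 FPKM in donor libraries (difference 2.25 ± 0.38, adjusted p = 0.0098). Both were thus more abundant in SCNT 1-cell embryos than in either the IVF embryos or the donor cells. Zfp352 was the only riser among 42 tested transcripts of a 2-cell-stage list, of which 0 fell, where 1.35% of all tested genes rose and 0.974% fell. Obox3 and Zscan4d, strongly expressed by IVF 2-cell embryos, did not pass: Obox3 had 0.1499 and 0.1712 FPKM in SCNT and 0.1314 and 0.1838 FPKM in IVF 1-cell embryos. Zscan4d had 2.602 and 2.591 FPKM in SCNT and 2.355 and 1.549 FPKM in IVF 1-cell embryos, uncertain values because 49.6% of its stretches are shared with other genes. Mylip, a ubiquitin ligase that lowers the LDL receptor, had 7.242 and 7.583 FPKM in SCNT and 2.065 and 2.443 FPKM in IVF embryos (difference 1.37 ± 0.16, adjusted p = 0.0012), with donor levels of 2.579 and 2.925 FPKM. Fbxo46, an F-box protein gene, had 26.14 and 23.43 FPKM in SCNT and 10.91 and 10.49 FPKM in IVF embryos (difference 1.14 ± 0.18, adjusted p = 0.0066), with 19.74 and 18.27 FPKM in donor cells, above the IVF level. Bcl7c, a subunit gene of SWI/SNF chromatin remodellers, had 43.1 and 44.71 FPKM in SCNT and 20.95 and 19.12 FPKM in IVF embryos (difference 1.10 ± 0.24, adjusted p = 0.036), and 2.044 and 1.565 FPKM in donor cells. Zfp42, which encodes the stem cell factor Rex1, had 3.427 and 2.763 FPKM in SCNT and 0.38 and 0.4956 FPKM in IVF embryos and was nearly undetected in donor cells, at 0.0195 and 0 FPKM (adjusted p = 0.004). Leaving out 1 library at a time kept the calls of Ankrd7 and Mylip. It ended those of Zfp352 (adjusted p up to 0.128), Fbxo46 (up to 0.105) and Bcl7c (up to 0.264) in each case. That of Zfp42 was lost without SCNT replicate 1 (0.074) or IVF replicate 1 (0.0628).

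Gt(ROSA)26Sor, the widely transcribed noncoding locus used for transgenes, had 9.347 and 8.259 FPKM in SCNT and 0.432 and 0.1416 FPKM in IVF embryos, with 22.47 and 26.82 FPKM in donor cells (difference 2.94 ± 0.21, adjusted p = 9.4e-05). Malat1, a nuclear noncoding RNA, had 30.96 and 32.82 FPKM in SCNT and 6.768 and 8.096 FPKM in IVF embryos (difference 1.97 ± 0.22, adjusted p = 0.0011), which in SCNT embryos was 0.986% of the donor level. Snhg4, a host transcript of small nucleolar RNAs, had 8.692 and 6.067 FPKM in SCNT and 1.087 and 0.7934 FPKM in IVF embryos (difference 2.10 ± 0.23, adjusted p = 0.0011). Snhg6 rose by 1.38 ± 0.18 (adjusted p = 0.0021) and Snhg1 by 1.21 ± 0.26 (adjusted p = 0.036), both named after their values were seen. 2610019E17Rik, named Rab26os in GENCODE M21, had 16.14 and 25.35 FPKM in SCNT and 3.796 and 3.472 FPKM in IVF embryos (difference 2.20 ± 0.18, adjusted p = 9.9e-05). Whether the authors counted by strand is not known here, so reads of an overlapping gene on the other strand cannot be told apart from its own. Of these 6, Snhg1 alone lost its call when any 1 library was left out (adjusted p up to 0.323).

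Mt1, a metallothionein that binds zinc and copper, had 32.43 and 47.08 FPKM in SCNT, 9.593 and 9.215 FPKM in IVF and 572.1 and 566.5 FPKM in donor libraries (difference 1.95 ± 0.24, adjusted p = 0.0017). Its neighbour and paralogue Mt2 had 20.19 and 25.54 FPKM in SCNT and 9.525 and 9.578 FPKM in IVF embryos (adjusted p = 0.012), uncertain because 45.8% of its stretches are shared. Id2, an inhibitor of helix-loop-helix transcription factors, had 56.94 and 58.95 FPKM in SCNT, 18.43 and 17.93 FPKM in IVF and 1175 and 1255 FPKM in donor libraries (difference 1.62 ± 0.17, adjusted p = 0.00074). Nupr1, a stress-induced chromatin protein, had 7.66 and 5.614 FPKM in SCNT and 0.8255 and 1.075 FPKM in IVF embryos (difference 1.96 ± 0.25, adjusted p = 0.002). Its donor levels were 2483 and 2076 FPKM. These 4 were singled out after their values were seen. Of 22 tested genes of the amino acid stress pathway governed by the factor Atf4, 3 rose and 0 fell, where 1.35% of all genes rose. With a pseudocount of 0.1 FPKM 6 rose, and with 5 FPKM 0 rose and 1 fell. Slc38a2, an amino acid transporter, had 3.726 and 2.664 FPKM in SCNT and 0.03327 and 0.07608 FPKM in IVF embryos (difference 1.98 ± 0.27, adjusted p = 0.003). Its donor levels were far higher, at 190.7 and 171.7 FPKM. Psat1, an enzyme of serine synthesis, had 3.304 and 3.288 FPKM in SCNT and 0.1215 and 0.3419 FPKM in IVF embryos, above its donor level of 1.615 and 2.615 FPKM (adjusted p = 0.0098). Herpud1, a protein of endoplasmic reticulum stress, was the third (difference 0.92 ± 0.21, adjusted p = 0.046), with donor levels of 8.053 and 7.905 FPKM. Of 21 p53 target genes 2 rose, 0 under quantile normalization and 1 with equal sums. Cdkn1a, an inhibitor of the cell cycle, rose by 1.04 ± 0.20 (adjusted p = 0.019) and Gadd45a, a growth arrest gene, by 1.00 ± 0.17 (adjusted p = 0.0098). In donor cells Cdkn1a had 107.8 and 98.02 FPKM and Gadd45a 57.98 and 47.77 FPKM. Leaving out any 1 library ended the calls of Mt2, Psat1, Herpud1 and Cdkn1a, with adjusted p up to 0.182, 0.127, 0.365 and 0.229. That of Slc38a2 was lost without SCNT replicate 1 (0.0533), and that of Gadd45a was kept only without SCNT replicate 2 (0.152 without IVF replicate 1).

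Calls in large housekeeping complexes are set beside the 2.32% of all tested genes called. Of 78 cytosolic ribosomal protein genes, Rps3 (4.693 and 5.319 FPKM in SCNT, 1.131 and 0.8511 FPKM in IVF embryos, adjusted p = 0.0045) and Rps19 (1.476 and 1.265 FPKM in SCNT, 0.1726 and 0.1393 FPKM in IVF embryos, adjusted p = 0.0093) rose and 0 fell. Of 66 ribosome biogenesis genes 3 rose and 1, the nucleolar protein gene Ncl, fell, and 0 were called under either quantile normalization or equal sums. Of 48 spliceosome genes Snrpb alone rose, and of 75 oxidative phosphorylation genes Ndufb10 alone. Both Psma1 and Psma2, subunits of the proteasome core, fell, by 0.81 ± 0.16 (adjusted p = 0.025) and 0.72 ± 0.13 (adjusted p = 0.016), the only calls among 41 proteasome genes. Among 35 genes of thioredoxin and glutathione redox control, Gpx1, Hmox1, Prdx4 and Prdx5 rose and Txnip and Glrx fell, Prdx5 being named after its values were seen. Under quantile normalization 0 rose and 1 fell, and with equal sums 2 rose and 1 fell. Gpx1, a glutathione peroxidase, had uneven IVF replicates: 61.2 and 53.91 FPKM in SCNT and 10.4 and 25.83 FPKM in IVF embryos (difference 1.74 ± 0.36, adjusted p = 0.032, and 0.275 without IVF replicate 1). Mdh2, a mitochondrial enzyme of the citric acid cycle, had 20.24 and 18.71 FPKM in SCNT and 3.222 and 5.431 FPKM in IVF embryos (difference 1.97 ± 0.29, adjusted p = 0.0053, and 0.089 without IVF replicate 1). Each call of a gene named here from Rps3 to Mdh2 was lost without at least 1 of the 4 libraries, except that of Txnip.

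**Figure D3:**
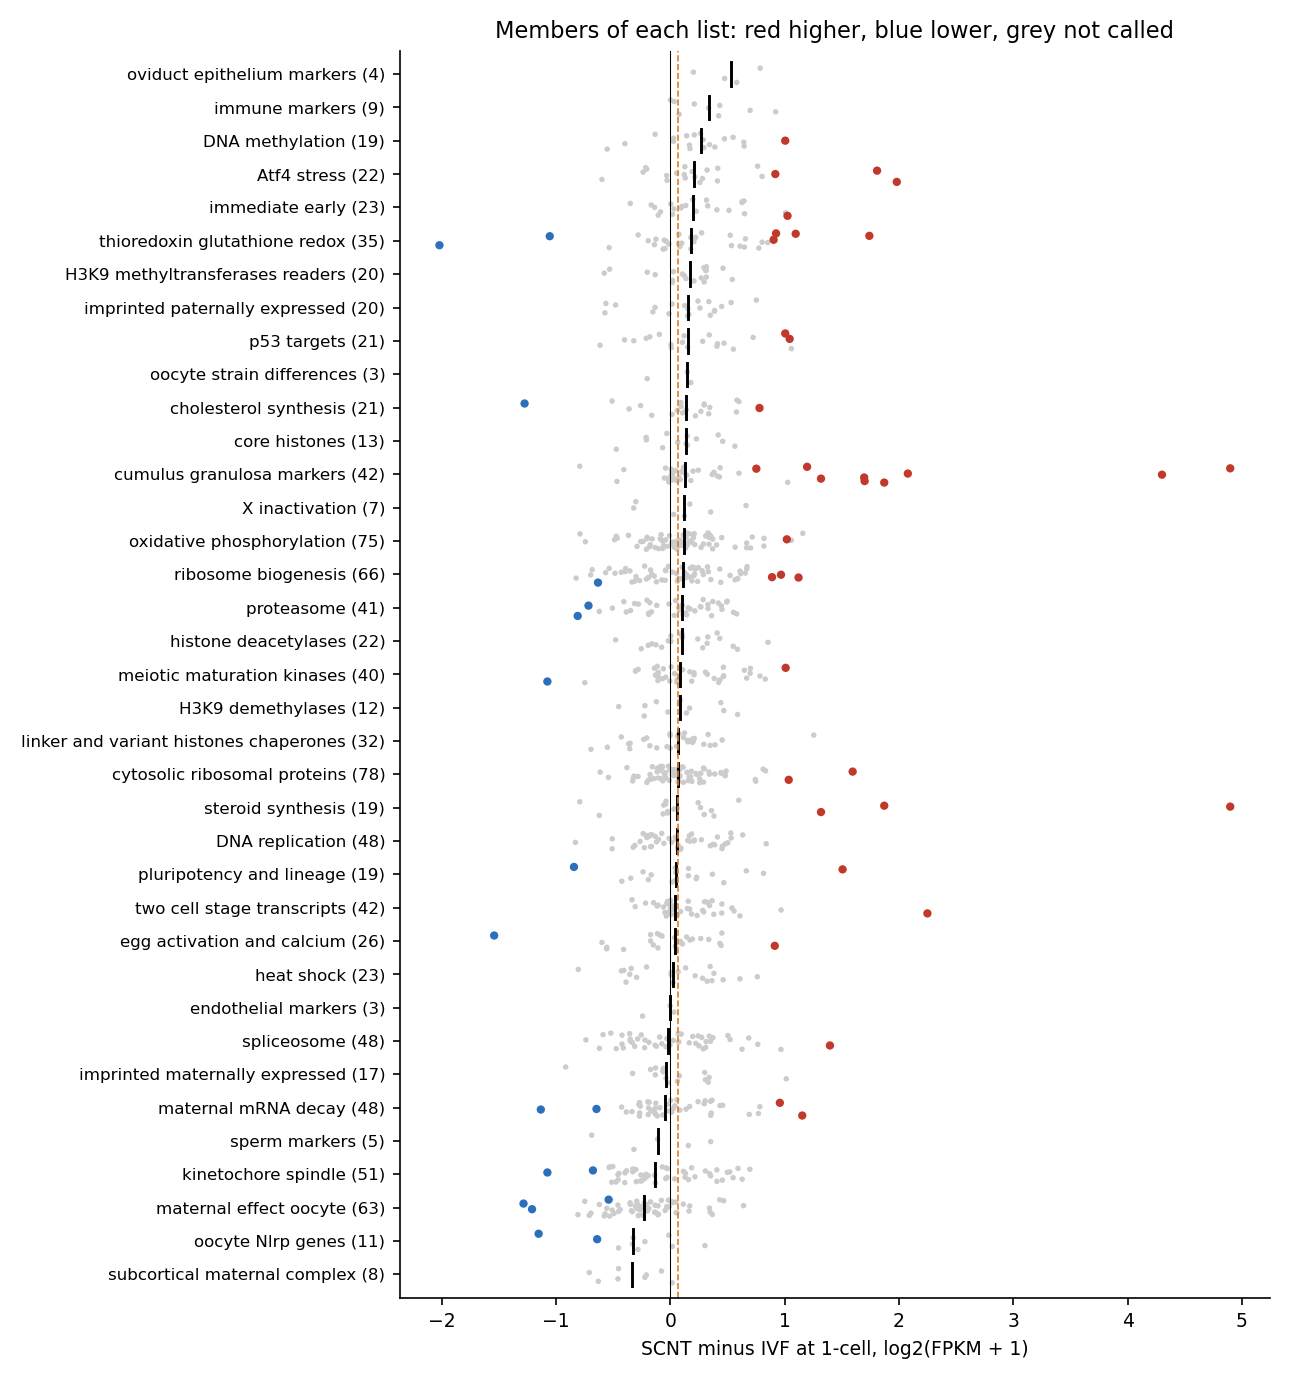
Difference between SCNT and IVF 1-cell embryos, as log2(FPKM + 1), for each tested member of the gene lists with at least 3 tested members (their number in brackets). Points are genes that rose (red), fell (blue) or were not called (grey), black bars are list medians and the dashed line is the median of all tested genes, 0.068; most lists are centred near that line, with the oocyte lists at the bottom below 0.

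The falls named by size were taken from called genes averaging at least 5 FPKM in a 1-cell group, with no overlap between groups. Good detection after IVF and close replicates thus follow in part from that rule. Ccdc117, which encodes a coiled-coil protein (mm9 chromosome 11, 5428891 to 5442220), had 18.17 and 20.48 FPKM in SCNT and 86.71 and 89.02 FPKM in IVF embryos (difference -2.13 ± 0.17, adjusted p = 9.9e-05). Txnip, which binds thioredoxin and restrains glucose uptake (mm9 chromosome 3, 96361880 to 96365780), had 23.03 and 22.31 FPKM in SCNT and 93.56 and 96.64 FPKM in IVF embryos (difference -2.02 ± 0.17, adjusted p = 0.00012). The SCNT mean was thus 0.22 times the IVF mean for Ccdc117 and 0.238 times for Txnip. Rdx, the gene of radixin, which ties actin to the plasma membrane (mm9 chromosome 9, 51855255 to 51896843), had 240.6 and 241.4 FPKM in SCNT and 698.6 and 709.5 FPKM in IVF embryos (difference -1.54 ± 0.19, adjusted p = 0.0016). Its relative Ezr, the gene of ezrin, went the other way, with 2.809 and 3.039 FPKM in SCNT and 1.207 and 0.967 FPKM in IVF embryos (adjusted p = 0.031). The predicted gene Gm15698 was the most abundant of the 12 largest falls by that rule. It had 388.9 and 391.1 FPKM in SCNT and 936.2 and 1006 FPKM in IVF embryos (difference -1.31 ± 0.20, adjusted p = 0.0056). Kcnn2, a potassium channel gated by calcium, fell by 1.45 ± 0.25 (adjusted p = 0.011), and Elovl5, a fatty acid elongase, by 1.34 ± 0.19 (adjusted p = 0.0039). Insig1, which holds back cholesterol synthesis, had 64.8 and 58.31 FPKM in SCNT and 152.6 and 148.1 FPKM in IVF embryos (difference -1.28 ± 0.28, adjusted p = 0.038). Of 21 tested cholesterol genes the other call was Mvd, which rose, where 2.32% of all tested genes were called.

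Smc4, a condensin subunit, had 56.04 and 54.84 FPKM in SCNT and 133.1 and 139.7 FPKM in IVF embryos (difference -1.28 ± 0.16, adjusted p = 0.0018). Smc3, a cohesin subunit, had 5.683 and 5.456 FPKM in SCNT and 12.77 and 16.14 FPKM in IVF embryos (difference -1.23 ± 0.21, adjusted p = 0.012). Bub1b, a kinase of the spindle checkpoint, had 9.096 and 11.18 FPKM in SCNT and 23.42 and 21.41 FPKM in IVF embryos (difference -1.08 ± 0.18, adjusted p = 0.0098). Cenpq, a kinetochore protein, had 97.94 and 97.83 FPKM in SCNT and 157.3 and 157.1 FPKM in IVF embryos (adjusted p = 0.029). The last 2 were the only calls among 51 kinetochore and spindle genes, where 2.32% of all tested genes were called. Hat1, which acetylates new histone H4, and Ctnnb1, the gene of beta-catenin, fell by 0.97 ± 0.18 (adjusted p = 0.017) and 1.06 ± 0.17 (adjusted p = 0.0087), named after their values were seen. Of the genes that fell from Ccdc117 to Ctnnb1, leaving out any 1 library kept the calls of Ccdc117, Txnip, Rdx and Smc4, and Elovl5 stayed called only without IVF replicate 2. The other 8 lost their call in each case, with adjusted p up to 0.279, as did the risers Ezr (up to 0.267) and Mvd (up to 0.413).

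Oocyte genes as a class lay slightly low in SCNT embryos, as did abundant genes in general, with few calls. Of 63 maternal effect and oocyte genes, 48 had a mean below IVF, 3 fell and 0 rose, with a median difference of -0.23. Of all tested genes 0.974% fell. The median difference of all tested genes was -0.16 at 100 FPKM or more and -0.078 at 20 to 100 FPKM. Oocyte genes were not compared with other genes of like level. All 64 listed summed to 48500 and 50660 FPKM in SCNT against 56520 and 55840 FPKM in IVF libraries. The 3 were Obox2, an oocyte homeobox gene, Zar1, an RNA-binding protein needed by the zygote, and Oas1d. Zar1 had 18.8 and 20.31 FPKM in SCNT and 45.47 and 47.71 FPKM in IVF embryos (difference -1.21 ± 0.27, adjusted p = 0.041). Obox2 had 157.9 and 158.1 FPKM in SCNT and 369.7 and 404.5 FPKM in IVF embryos (adjusted p = 0.013), uncertain because 65.1% of its stretches are shared with other genes. Of 11 oocyte Nlrp genes, Nlrp14 fell (79.9 and 81.64 FPKM in SCNT, 175.3 and 186.7 FPKM in IVF embryos, difference -1.15 ± 0.14, adjusted p = 0.0017), as did Nlrp4b, by 0.64 ± 0.15 (adjusted p = 0.049). Leaving out any 1 library kept the call of Nlrp14 and ended those of the other 4 (adjusted p up to 0.323). Of the 8 genes of the subcortical maternal complex, a protein lattice under the egg membrane, 0 were called, with a median difference of -0.34. The medians of these 3 lists stayed below 0 under both scalings tried, at -0.10 to -0.25, with 0 or 1 calls in each.

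The following oocyte messages did not pass the test. Btg4, the adaptor that brings the deadenylase to maternal messages, had 4285 and 4519 FPKM in SCNT and 5375 and 5248 FPKM in IVF embryos (adjusted p = 0.80). The difference was -0.27 ± 0.34. Oosp1, an oocyte-secreted protein, had 755.1 and 803.2 FPKM in SCNT and 1403 and 1330 FPKM in IVF embryos, and H1foo, the oocyte linker histone, had 330.7 and 401.6 FPKM in SCNT and 617.5 and 565.3 FPKM in IVF embryos. Gdf9, a growth factor of the oocyte, had 90.52 and 94.56 FPKM in SCNT and 133.7 and 134.8 FPKM in IVF embryos (adjusted p = 0.28). Zp3, a protein of the egg coat, had 14.93 and 13.75 FPKM in SCNT and 22.21 and 20.92 FPKM in IVF embryos (adjusted p = 0.13). Mos, the kinase that holds the egg in meiosis, had 2.666 and 3.129 FPKM in SCNT and 5.364 and 5.725 FPKM in IVF embryos (difference -0.75 ± 0.22, adjusted p = 0.11). Oosp1, H1foo, Gdf9 and Zp3 were chosen after their values were seen. In these 6 genes the SCNT libraries were below the IVF libraries without overlap, which also held in either direction for 66.2% of all genes. Of the 12 oocyte markers, 10 had both SCNT libraries below both IVF libraries and 0 the reverse. Nlrp5 and Zp1, named after their values were seen, overlapped. Nlrp5 had 128.5 and 149.0 FPKM in SCNT and 133.6 and 140.2 FPKM in IVF embryos. Zp1 had 9.357 and 12.93 FPKM in SCNT and 12.63 and 11.82 FPKM in IVF embryos. Of 48 genes of maternal mRNA decay, Zfp36l1 and Tob1 rose and Lsm14b and Dicer1 fell, where 1.35% of all tested genes rose and 0.974% fell. Tob1, which recruits deadenylases, had 7.222 and 7.178 FPKM in SCNT and 3.35 and 3.1 FPKM in IVF embryos (difference 0.96 ± 0.16, adjusted p = 0.0088). Dicer1, which makes small RNAs, had 24.56 and 26.25 FPKM in SCNT and 39.95 and 40.72 FPKM in IVF embryos (difference -0.65 ± 0.14, adjusted p = 0.035). All 4 calls were lost without any 1 of the libraries (adjusted p up to 0.117 for Tob1 and 0.286 for Dicer1), and 54.4% of the stretches of Zfp36l1 are shared with other genes.

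Lists of chromatin genes held 0 or 1 calls each, where 2.32% of all genes were called. There were 0 among 20 histone H3 lysine 9 methyltransferases and readers, 12 demethylases of that lysine, 22 histone deacetylase genes, 32 linker and variant histone genes and 13 core histone genes. Among 19 genes of DNA methylation, Gadd45a was the single call. Kdm4d, the demethylase used elsewhere in the series, was near 0 in all 4 libraries, with 0.2095 and 0.08125 FPKM in SCNT and 0.1272 and 0.03221 FPKM in IVF embryos. Of 20 paternally and 17 maternally expressed imprinted genes 0 were called. Xist, the RNA that silences an X chromosome, had 0.158 and 0.1411 FPKM in SCNT and 0.04851 and 0.06308 FPKM in IVF embryos (adjusted p = 0.87). Of 9 tested immune markers all had means above IVF and 0 were called. All 14 immune markers listed summed to 6.797 and 8.633 FPKM in SCNT, 4.087 and 2.569 FPKM in IVF and 264.8 and 139.5 FPKM in donor libraries, and were thus present in the donor cells too. All 4 tested oviduct epithelium markers also had means above IVF, with 0 called and a median difference of 0.53. The 8 listed summed to 4.78 and 3.435 FPKM in SCNT, 2.07 and 1.483 FPKM in IVF and 44.14 and 28.1 FPKM in donor libraries. The part of either cell type in the result was not tested. Of 3 tested genes known to differ between mouse strains 0 were called, too few to judge the part of strain. Of these, Nnt was near the floor, with 0.643 and 0.4441 FPKM in SCNT and 0.5483 and 0.1967 FPKM in IVF embryos. At 2-cell Nnt averaged 1.745 FPKM in SCNT and 0.1017 FPKM in IVF embryos (limma adjusted p = 0.00011). By chromosome, the largest shares were 14 of 459 genes that rose on chromosome 19 (3.05%) and 17 of 778 that fell on chromosome 9 (2.185%). Over all tested genes the shares were 1.35% and 0.974%. The 2 chromosomes are the extremes of all those compared, and their difference from the rest was not tested.

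The level of a gene went with the direction of its call. Of genes averaging 1 to 5 FPKM over the 4 libraries, 98 rose and 9 fell. Of genes at 20 to 100 FPKM, 14 rose and 63 fell, and at 100 FPKM or more 1 rose and 19 fell. The median difference of all genes slid in the same way, at 0.11 in the 1 to 5 FPKM class and -0.16 at 100 FPKM or more. Genes that rose were also often genes of the next stage: 98 of 181 (54.14%) averaged at least 10 FPKM in IVF 2-cell embryos, as did 68 of 131 that fell (51.91%) and 26.34% of all tested genes. For 87.29% of the 181, the IVF 2-cell mean was above the IVF 1-cell mean, against 16.03% of the 131 and 46.87% of all. The 1-cell IVF libraries enter both of those comparisons, so the direction is partly shared by construction. Of the 181, 28 were at 10 FPKM or more in IVF 2-cell embryos but under 10 FPKM in donor cells, and 38 were under 10 FPKM in both.

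**Figure D4:**
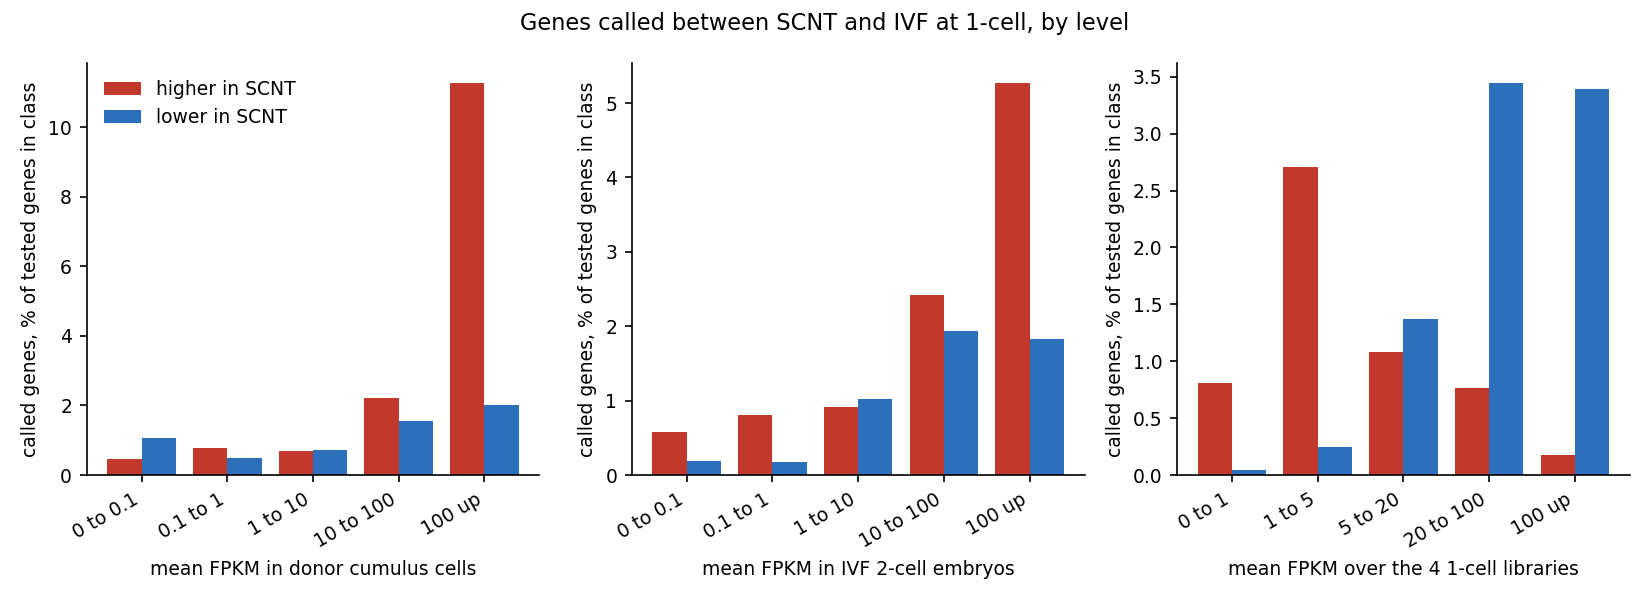
Share of tested genes that rose (red) or fell (blue) in SCNT 1-cell embryos, in percent, by class of mean FPKM in donor cumulus cells, in IVF 2-cell embryos and over the 4 1-cell libraries. The share that rose reaches 11.28% in the highest donor class, and the shares that fell are largest, 3.448% and 3.393%, in the upper 2 classes of 1-cell level.

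At the 2-cell stage the same contrast, in libraries that share no embryo pool with the 1-cell ones, called 30.3% of tested genes higher and 16.6% lower in SCNT embryos, 46.9% in all. Of the 181 genes that rose at 1-cell, 76 (41.99%) were higher at 2-cell, 47 (25.97%) lower and 58 not called. Of the 131 that fell, 25 (19.08%) were higher, 36 (27.48%) lower and 70 not called. The 76 made up 1.865% of all genes higher at 2-cell, and the 36 made up 1.615% of all genes lower. The change of the contrast between stages was called for 29.2% of tested genes. The large rises of Akr1c18 and Spp1 were not seen at 2-cell: Akr1c18 averaged 2.91 FPKM in SCNT and 3.31 FPKM in IVF 2-cell embryos, and Spp1 averaged 12.96 FPKM in SCNT and 13.92 FPKM in IVF 2-cell embryos. Slc38a2 was far apart at both stages, at 31.76 FPKM in SCNT and 0.198 FPKM in IVF 2-cell embryos (difference 4.77, adjusted p = 3.45e-07). Ankrd7 was also higher at both, with 4.389 FPKM in SCNT and 0.2724 FPKM in IVF 2-cell embryos (difference 2.05, adjusted p = 0.00035). Zfp352 did not keep its lead, with 104.6 FPKM in SCNT and 158.4 FPKM in IVF 2-cell embryos (adjusted p = 0.19). Ccdc117 and Gm15698 were lower at both stages, Gm15698 with 23.79 FPKM in SCNT and 223.3 FPKM in IVF 2-cell embryos (difference -3.21, adjusted p = 6.27e-07). Elovl5 changed side, with 4.198 FPKM in SCNT and 1.511 FPKM in IVF 2-cell embryos (difference 1.04, adjusted p = 0.00089).

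**Figure D5:**
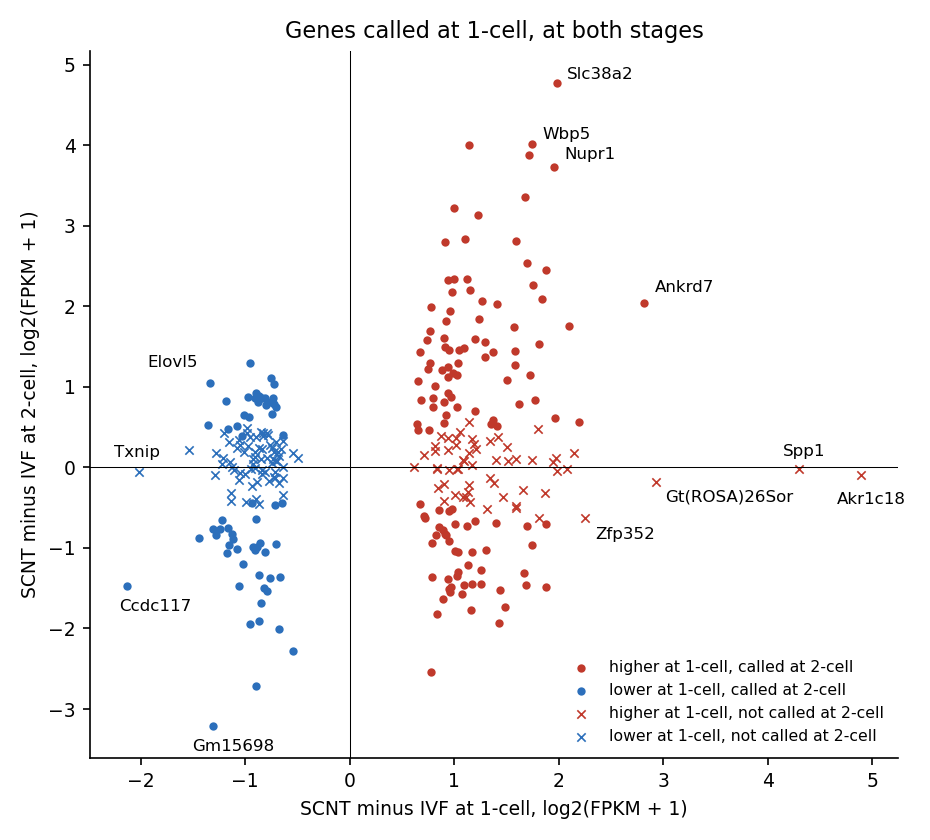
Difference between SCNT and IVF embryos at 2-cell (vertical axis) against 1-cell (horizontal axis), as log2(FPKM + 1), for the 312 genes called at 1-cell. Filled points were called at 2-cell too and crosses were not; genes that rose at 1-cell spread over both directions at 2-cell, with 76 higher and 47 lower, while Akr1c18 and Spp1 lie near 0.

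Messages stored in oocytes often carry a cytoplasmic polyadenylation element near their 3′ end, a short U-rich motif through which the poly(A) tail is controlled. On the GENCODE M21 annotation, the motif was searched as TTTTAT or TTTTAAT in the sense strand of the last 100 bases of a transcript. It was found in 40 of 127 genes that fell (31.5%), 30 of 160 that rose (18.75%) and 2403 of 12578 tested genes with an annotated transcript (19.1%). By 1-cell level, the shares were 50.0% (4 of 8) of those that fell and 16.8% of all under 5 FPKM, 35.1% (13 of 37) and 21.2% at 5 to 20 FPKM, and 28.0% (23 of 82) and 24.1% at 20 FPKM or more. TTTTAAT can overlap the AATAAA signal of cleavage, which none of the copies shown here does. Genes that fell had longer 3′ UTRs (median 1185 bases) than those that rose (720.5) or all tested genes (1048), and a lower GC content, 44.82% against 49.09% and 49.53%. A match describes the letters and not a working site. The windows below show it, in capitals, in 4 genes that fell, given as examples. It can lie nearer the end in genes not shown, such as Ctnnb1, where it ends 7 bases before the transcript end.
Txnip: aaaaataaagttTTTTAATgacaaaaataa
Rdx: ccattagcataaTTTTATgttgtacaagta
Insig1: ttttttttttacTTTTATtaaaggttcaaa
Bub1b: tttcactgtgtaTTTTATaataaaatagtt
The motif ends 29 bases before the transcript end in Txnip, 77 in Rdx, 16 in Insig1 and 21 in Bub1b. The letters are those of the annotation's GRCm38 transcripts, 5′ to 3′, with T for U.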

How the data were processed

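Per the labels' protocols, pooled embryos were lysed for SMARTer cDNA synthesis and amplification, Covaris fragmentation and NEBNext Ultra libraries, and read as single ends of 50 bases on an Illumina HiSeq. Per the submitters' processing notes, Novoalign (version not given) and Cufflinks 2.0.2 were used with build mm9. The authors deposited FPKM, with no counts; how they handled multiply mapping reads is not given here.

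From the 23697 rows, 813 short-RNA rows were removed and 630 rows sharing a symbol were summed. Tests used log2(FPKM + 1), unscaled, for genes that reached 1 FPKM in 2 or more libraries. All 7 groups of 2 libraries were fitted in limma 3.58.1 (R 4.3.3; trend on intensity; degrees of freedom 7 residual and 4.751 prior, a median). The fit was tested on simulated data. Starts count from 0 in the table, so 1 was added. A gene is called uncertain where over 30% of its 50-base stretches on GENCODE M21 transcripts occur in other genes.

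Genes were named by size of change among those averaging 5 FPKM or more in either group, per list, and by donor level; others are marked as named after their values were seen. Members, gene lists and naming rules were chosen with earlier results of these data known. Alternatives covered pseudocount, filter, scaling, libraries in the fit, weights, the replicate number as a block, and each 1-cell library left out.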

Additional observations from a re-analysis of the deposited data

Results flagged for a closer look

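The difference between SCNT and IVF embryos changed between the stages for 21 of the 28 genes named for the size of their 1-cell change. The test was the limma interaction test adjusted over all tested genes, of which 29.2% passed. Part of this follows from choosing genes for their size at 1-cell. The values that follow are the 2-cell minus the 1-cell difference on the log2(FPKM + 1) scale.

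Among genes that rose at 1-cell, the change was -4.997 for Akr1c18, -4.321 for Spp1, -3.122 for Gt(ROSA)26Sor, -2.879 for Zfp352, -2.096 for Ctsl and -2.033 for Zfp948, a zinc finger gene. It was -1.973 for Akr1cl, -1.86 for Mdh2, -1.629 for 2610019E17Rik, -1.357 for Malat1 and -1.356 for Fbxo46. It was -1.021 for Bcl7c, -0.9872 for Gm3219 and -0.7819 for Mylip. All transcript stretches of Gm3219 are shared with other genes (100%), so its value is uncertain.

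Among genes that fell at 1-cell, the change was 2.378 for Elovl5, 1.967 for Txnip, 1.883 for Fam84a, 1.753 for Rdx, 1.455 for Insig1 and 1.195 for Obox2. For Gm15698 it was -1.894, a larger shortfall at 2-cell. Elovl5 and Fam84a passed the test in opposite directions at the 2 stages: Fam84a had a difference of 0.53 at 2-cell (adjusted p = 0.046) and -1.36 at 1-cell (adjusted p = 0.0045).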

How the results depend on the processing

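None of the 312 called genes changed sign in any of the 14 alternatives that tested it, while their number moved widely. Pseudocounts of 0.1 and 5 FPKM gave 604 and 96 genes that rose and 162 and 205 that fell, with 464 and 130 of those called at 2-cell too (184 as reported). With no filter 173 rose and 132 fell, 150 of them called at 2-cell, and with a filter of 5 FPKM 229 and 172, with 246. Quantile normalization gave 78 and 66, with 77 called at 2-cell, and equal sums 105 and 44, with 98. The fit to the 4 1-cell libraries gave 1620 and 1177, with 37.78% of the risers at 10 FPKM or more in donor cells (63.54% as reported). The fit without the Kdm4d libraries gave 1028 and 720, with 1201 called at 2-cell, and group weights 2550 and 1532, with 2410 and a donor share of 34.2%. These last 3 fits kept 175, 181 and 181 of the 181 risers; the cause of their larger counts was not tested. Uncalled genes near 0 changed sign: under quantile normalization Kdm4d was at -0.0674, Xist at -0.01055 and Obox3 at -0.2323, and Obox3 ran from -0.02871 to 0.03664 without 1 library.

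The replicate numbers do not pair the libraries by the labels, and deviations of same-numbered libraries correlated at -0.027. With the number as a replicate block, 133 genes rose and 87 fell, 128 of them called at 2-cell, and 68.42% of risers had 10 FPKM or more in donor cells. Leaving out 1 library gave 36 to 47 that rose, 9 to 11 that fell, 25 to 35 called at 2-cell and donor shares of 77.5% to 83.78%.

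Depth limits genes near 0: the files hold no counts, so no counting interval is given.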
